A study of Mus musculus with 11 samples.

Results

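The library of the protein SPT5 was set against the 4 libraries of the NELF subunits NELFA, NELFB, NELFCD and NELFE, chosen by the protein that their labels name. These are 5 of 11 libraries of HIV integration sites in mouse embryonic fibroblasts of the C57BL/6 strain, all lacking LEDGF (LEDGF-/-). LEDGF is the cellular protein that normally ties the viral integrase to chromatin. In every library a plasmid carrying a protein fused to LEDGF-IBD, the integrase-binding domain of LEDGF, was electroporated, and HIV was added 24 hours later. Cells grew for another 3 days before junctions between virus and genome were amplified and sequenced, an assay named HIT-seq, in which an integration site stands in for a place where the fused protein meets chromatin. The SPT5 library held 82038 distinct sites, counted once for every combination of chromosome, position and strand, and the NELFA, NELFB, NELFCD and NELFE libraries held 30109, 30960, 41265 and 18753, which makes 203125 of the 831994 sites of the 11 libraries.

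SPT5 is the large subunit of DSIF, a complex of SPT4 and SPT5 that binds RNA polymerase II early in transcription. Together with NELF it holds the polymerase in a pause just past the gene start. When the kinase P-TEFb phosphorylates both, NELF leaves while SPT5 stays with the polymerase and travels along the gene, and near the end of genes SPT5 takes part in the slowing of the polymerase that precedes termination. A place where SPT5 sites are found and NELF sites are not is therefore the question that the comparison addresses.

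Each protein had 1 library, so the 4 NELF subunits gave the only spread, and SPT5 was assumed to vary like them. Their spread is a spread between different fused proteins and not between repeats of one protein. An exact permutation test of 1 library against 4 cannot give a p below 0.2, so shares, profiles and gene lists are described without a test. The proteins were overexpressed as fusions from a plasmid, no library without a fused protein was analysed here, and sites are pooled over cells, so more cells with sites and more sites per cell cannot be told apart. The SPT5 library came from 1 flow cell with a HiSeq-style name and the 4 NELF libraries from 1 other with a GA-style name, so protein and flow cell cannot be told apart. NELFE had the fewest sites and stood apart from the other NELF libraries near starts, as given with the values. Of the markers of other cell types, the 10 blood genes had 0.6962 times the uniform density in SPT5 and 0.3807 to 1.186 times in the NELF libraries, and neuron, hepatocyte and endothelial genes had 0.3158 to 1.731 times in the 5 libraries. The 8 epithelial genes had 0.3993 times in SPT5 and 0.7053 to 1.747 times in NELF, while the 24 fibroblast markers had 7.262 times in SPT5 and 4.503 to 6.901 times in NELF.

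The sequences of 5 gene starts are shown because the single-gene results turn on them. Hist1h4k is the histone gene with the smallest adjusted p, Malat1 and Tuba1b had no SPT5 site around the start, and Mat2a and Snhg1 had SPT5 sites along the gene where NELF had few. Each runs 5′ to 3′ on the gene strand of mm9 from 120 bases before the annotated start and through its first 10 bases, with capitals marking the letters TATAAA, or TTTATA where they stand on the other strand.
Hist1h4k, chr13:21842365-21842494, minus strand: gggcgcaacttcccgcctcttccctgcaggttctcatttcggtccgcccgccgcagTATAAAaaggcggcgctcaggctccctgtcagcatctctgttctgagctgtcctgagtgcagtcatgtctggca
Malat1, chr19:5802662-5802791, minus strand: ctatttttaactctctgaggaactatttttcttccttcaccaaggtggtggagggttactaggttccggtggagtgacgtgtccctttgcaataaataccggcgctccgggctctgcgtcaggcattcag
Tuba1b, chr15:98764987-98765116, minus strand: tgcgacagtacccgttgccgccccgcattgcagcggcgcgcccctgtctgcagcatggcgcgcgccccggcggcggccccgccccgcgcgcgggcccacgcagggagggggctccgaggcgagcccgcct
Mat2a, chr6:72389543-72389672, minus strand: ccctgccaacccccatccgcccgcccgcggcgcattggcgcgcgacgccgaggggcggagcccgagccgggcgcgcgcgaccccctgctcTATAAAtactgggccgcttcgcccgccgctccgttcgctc
Snhg1, chr19:8797866-8797995, plus strand: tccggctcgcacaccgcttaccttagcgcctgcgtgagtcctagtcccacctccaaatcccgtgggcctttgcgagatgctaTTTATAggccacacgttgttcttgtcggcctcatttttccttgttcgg
TATAAA, the core of the TATA box, begins 64 bases before the annotated start in Hist1h4k and 30 bases before it in Mat2a, and its reverse stands in the Snhg1 window. In Hist1h4k the annotated start is the A of an ATG, so the model holds no leader before the coding part. The letters are not in the windows of Malat1 and Tuba1b on either strand. Windows with TATAAA on either strand made up 6.97% of the 22350 protein-coding starts, 34.3% of the starts of 67 replication-dependent histone genes (23 windows), 4.82% of those of 83 ribosomal protein genes and 44.4% of those of 9 snoRNA host genes (4 windows). A match describes the letters and not a bound factor.

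At the junction itself the 5 libraries shared the base preference of the viral integrase. The first genomic base beyond the viral end was G in 36.1% of SPT5 sites, against 39.9%, 40.3%, 35.5% and 39.0% of NELFA, NELFB, NELFCD and NELFE sites. The base at position 6, counted from that first base as 1, was C in 36.7% of SPT5 sites, against 39.2%, 39.7%, 35.7% and 38.9% in the same order of NELF subunits. SPT5 values lay within the range of the NELF values for both. SPT5 shared 123, 126, 139 and 46 exact positions with NELFA, NELFB, NELFCD and NELFE.

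SPT5 sites gathered at gene starts about as often as NELF sites did, but many more of them lay in the next few kilobases of the gene. Within 1 kb of the starts of protein-coding genes lay 22.61% of SPT5 sites (95% exact binomial interval 22.32 to 22.9, counting error only), against 20.14%, 22.91%, 22.05% and 13.39% of NELFA, NELFB, NELFCD and NELFE sites. The SPT5 share fell inside the NELF range, whose mean was 19.62 ± 4.31% (SD, n = 4), with NELFE far below the others. From 1 to 5 kb downstream of starts lay 15.14% of SPT5 sites (14.9 to 15.39), against 9.472%, 9.858%, 8.334% and 9.39% of the same NELF libraries. SPT5 stood above all 4 here, by 5.88 percentage points over a mean of 9.264 ± 0.652% (SD, n = 4). Within 5 kb past gene ends lay 10.03% of SPT5 sites (9.83 to 10.24), against 8.519%, 9.096%, 8.336% and 8.057% of NELF sites, a gap of 1.53 percentage points over a NELF SD of 0.439.

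An instrument difference was measured in 3 other proteins read on both instrument types, on flow cells that held none of the NELF libraries. The share 1 to 5 kb downstream was 14.3% on HiSeq and 12.9% on GA for NABP1, 16.4% and 14.1% for NABP2, and 8.42% and 7.58% for INTS9. The HiSeq part was above the GA part in all 3, the same direction as SPT5 against NELF, and its part in the result was not tested.

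In bins of 250 bases the profile around starts separated the proteins on the downstream side. The density is given as the fold over sites spread evenly over the genome, for 22283 protein-coding genes outside the histone list. In the first 250 bases of genes the density was 19.7-fold for SPT5, against 14.9-, 18.7-, 18.3- and 8.61-fold for NELFA, NELFB, NELFCD and NELFE. Between 1000 and 1250 bases it was 11.1-fold for SPT5, against 7.80-, 8-, 7.31- and 6.24-fold. Between 1750 and 2000 bases it was 6.63-fold for SPT5, against 3.59-, 3.69-, 3.73- and 3.31-fold, and SPT5 lay above all 4 in both of these bins.

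SPT5 was also the most lopsided of the 5 libraries. The density 1 to 5 kb downstream of starts was 1.75 times that 1 to 5 kb upstream for SPT5, against 1.22, 1.17, 1.11 and 1.27 times for NELFA, NELFB, NELFCD and NELFE, a NELF mean of 1.19 ± 0.0685 (SD, n = 4). In the 250 bases just upstream of the start, where the core promoter lies, NELFB and NELFCD dipped to 0.482 and 0.502 of the flanking bins. SPT5, at 0.901, and NELFA, at 0.883, did not dip as far, and NELFE had 0.768. This dip split the NELF subunits among themselves.

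**Figure D1:**
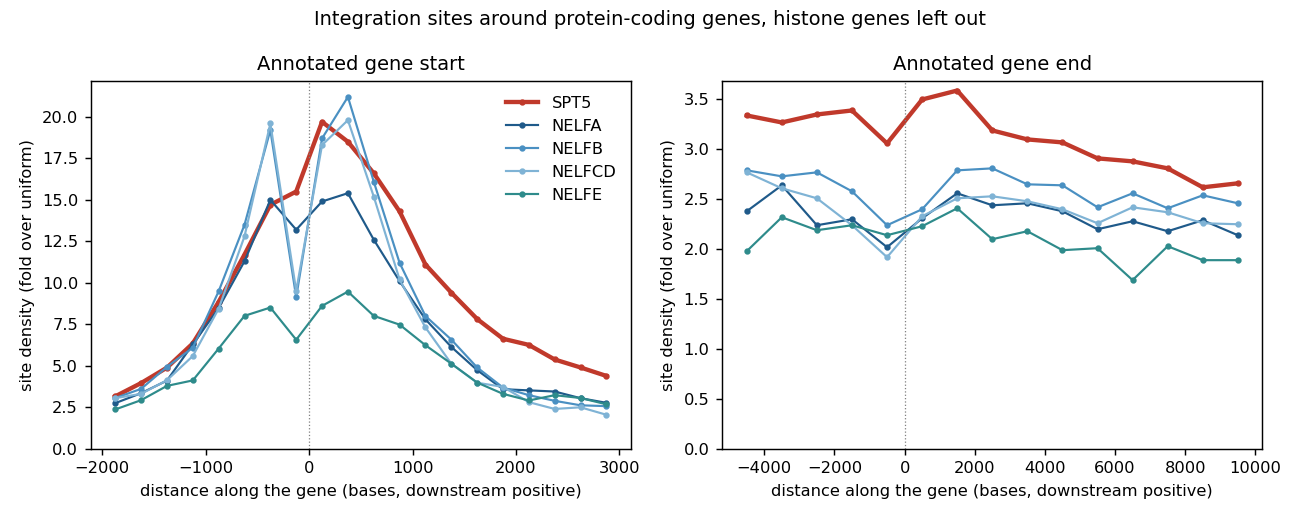
Site density of SPT5 and the 4 NELF libraries (fold over uniform, y axis) by distance from the annotated start, in bins of 250 bases, and from the annotated end, in bins of 1000 bases (x axes), over protein-coding genes outside the histone list; each line is 1 library. SPT5 declines more slowly downstream of starts, with 6.63-fold against 3.31- to 3.73-fold at 1750 to 2000 bases, and lies above the NELF lines on both sides of gene ends.

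Farther into genes the gap narrowed, and in long genes it turned round. From 4 to 5 kb downstream of starts SPT5 had 3.06-fold density, against a NELF mean of 1.93 ± 0.0974-fold (SD, n = 4), and from 10 to 20 kb it had 2.21-fold, against 1.81 ± 0.0645-fold. In the 2399 genes of at least 100 kb, SPT5 had 11.7-fold density in the first 1 kb, against 9.51 ± 2.14-fold in NELF. From 50 to 100 kb into the same genes it had 0.696-fold, against 0.916-, 0.813-, 0.858- and 1.07-fold in NELFA, NELFB, NELFCD and NELFE. SPT5 was below all 4 NELF libraries there.

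The elongation ratio, the log2 of the density in the body over that around the start in genes of at least 20 kb, put SPT5 at -4.20, against -3.88, -4.14, -4.04 and -2.98 for NELFA, NELFB, NELFCD and NELFE. SPT5 was the lowest of the 5, within 1 SD of the NELF mean of -3.759 ± 0.533 (n = 4). The ratio was also lower on HiSeq than on GA in the 3 proteins read on both, with -2.14 against -1.7 for INTS9, -2.34 against -2.13 for NABP1 and -1.58 against -1.33 for NABP2. Relative to the start, bodies of these longer genes thus held no larger part of SPT5 sites than of NELF sites.

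Past gene ends the SPT5 excess was present but modest. In the first 1 kb past the end the density was 3.50-fold for SPT5, against 2.31-, 2.4-, 2.33- and 2.23-fold for NELFA, NELFB, NELFCD and NELFE. From 1 to 2 kb past it was 3.59-fold for SPT5, against 2.57 ± 0.161-fold in NELF (SD, n = 4). By 9 to 10 kb past the end it was 2.66-fold for SPT5, against 2.19 ± 0.237-fold in NELF. Ends of short genes lie close to their starts and to neighbouring genes, so these densities mix start, body and end.

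Gene length ordered the difference. Body density, over the gene beyond the first 1 kb, is a mean over many genes in each class. In the 5773 genes under 5 kb it was 8.53-fold for SPT5, against 3.39-, 4.04-, 3.23- and 3.63-fold for NELFA, NELFB, NELFCD and NELFE, or 2.39 times the NELF mean. The ratio of SPT5 to the NELF mean was 1.91 in the 3017 genes of 5 to 10 kb, 1.56 in the 3783 genes of 10 to 20 kb and 1.21 in the 4873 genes of 20 to 50 kb. It was 1.0 in the 2438 genes of 50 to 100 kb, 0.878 in the 1445 genes of 100 to 200 kb and 0.838 in the 954 genes of 200 kb and over. SPT5 thus stood above NELF in bodies of short genes and below it in bodies of long ones.

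**Figure D2:**
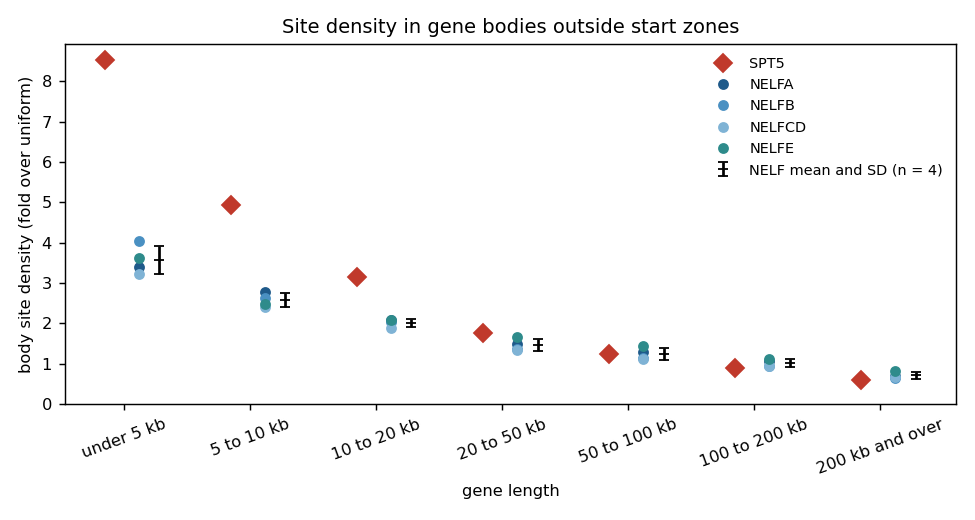
Body site density (fold over uniform, y axis) by gene length (x axis) for SPT5 (diamonds), each NELF library (circles) and the NELF mean with its SD (bar, n = 4). SPT5 is at 8.53 against a NELF mean of 3.57 under 5 kb, level with it at 50 to 100 kb (1.25 each), and at 0.601 against 0.717 at 200 kb and over.

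How heavily a start was used in the 6 libraries of Integrator and SOSS proteins, which are outside the comparison, also ordered the body density of short genes. Among genes of 2 to 20 kb with over 0.708 start-zone sites per 100000 in those libraries, SPT5 had 11.6-fold body density, against 5.30-, 6.01-, 4.97- and 5.06-fold in NELFA, NELFB, NELFCD and NELFE, a ratio of 2.17 to the NELF mean. The ratio was 1.71 between 0.346 and 0.708, 1.51 between 0.173 and 0.346 and 1.43 at lower levels above 0. In genes with no site at the start in the 6 libraries it was 1.09. In genes of at least 100 kb the same classes gave ratios between 0.823 and 0.914, with SPT5 under the NELF mean in each.

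Start and downstream zones of single genes were compared next, with the start zone reaching 1 kb to each side of the start and the downstream zone running from there to 5 kb past the end. At the most heavily used starts SPT5 had fewer sites than NELF, and downstream of them more. The 22 genes outside the histone loci with at least 5 start-zone sites per 100000 in the 6 other libraries had 154 SPT5 sites in their start zones, against 485 NELF sites. Summed over the 22, that is 187.7 per 100000 sites for SPT5, against 418.5, 481.3, 349.0 and 351.9 for NELFA, NELFB, NELFCD and NELFE, and SPT5 had 0.469 times the NELF mean. Their downstream zones held 554.6 per 100000 for SPT5, against 259.1, 365.0, 232.6 and 298.6, and SPT5 had 1.92 times the NELF mean. SPT5 lay outside the NELF range in both zones, below it at the start and above it downstream. The 22 include Malat1 and Gm20417, which lies inside it on the other strand, so some sites were summed in opposite zones. At the same 22 starts, which were chosen with these libraries, the HiSeq part was lower than the GA part as well, with 56.0 against 78.3 per 100000 for INTS9, 156 against 199 for NABP1 and 180 against 267 for NABP2. Downstream sites per start site were 2.04 on HiSeq and 1.44 on GA for INTS9, 2.07 and 1.96 for NABP1, and 2.46 and 2.12 for NABP2. The instrument's part in the difference between SPT5 and NELF was not tested.

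Less used starts showed no deficit against all 4 NELF libraries. In the 404 genes with 2 to 5 start-zone sites per 100000 in the other libraries the ratio of SPT5 to the NELF mean was 1.02 at the start and 1.79 downstream. At these 404 starts SPT5 stood at 1.07, 0.808, 0.881 and 1.59 times NELFA, NELFB, NELFCD and NELFE, so it was below NELFB and NELFCD. In the 1755 genes with 1 to 2 it was 1.27 at the start and 1.42 downstream, and in the 20411 genes with under 0.5 it was 1.2 and 1.0. The start ratios above 1 rested mostly on NELFE: in the 20411 genes SPT5 stood at 1.77 times NELFE and at 1.16, 1.02 and 1.06 times NELFA, NELFB and NELFCD.

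**Figure D3:**
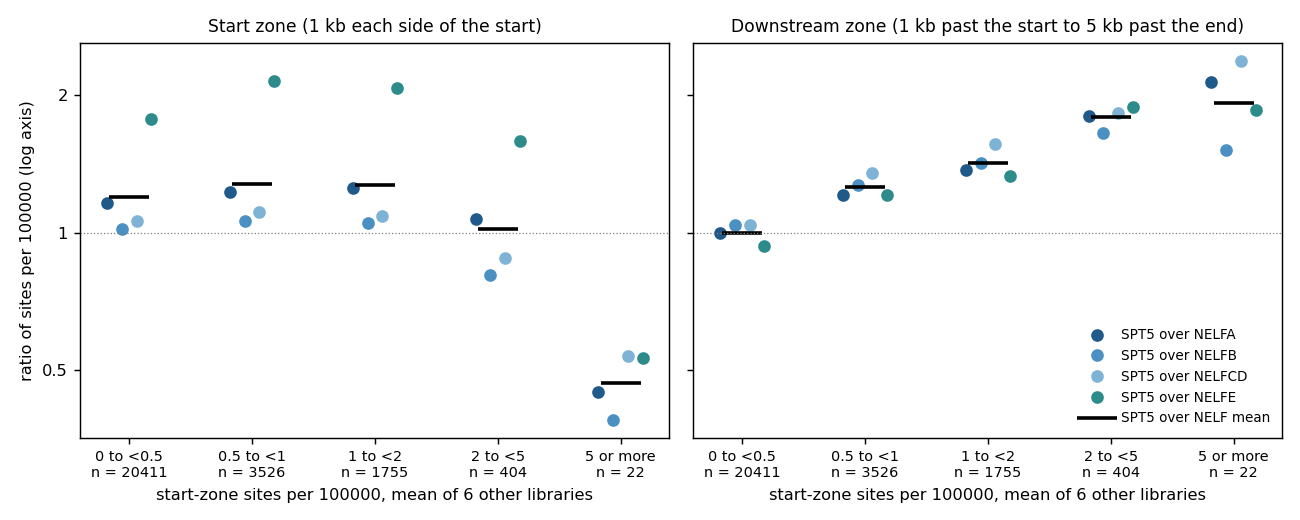
Ratio of sites per 100000 in SPT5 over each NELF library (circles) and over the NELF mean (bars), on a log axis, in start zones (left) and downstream zones (right), by start-zone level in the 6 other libraries (x axis, with the number of genes). In the class of 5 or more (22 genes) SPT5 is at 0.469 times the NELF mean at the start and 1.92 times it downstream; histone loci are left out.

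Malat1 and Neat1, neighbouring long noncoding RNA genes whose abundant transcripts stay in nuclear bodies, showed the split most plainly. The start zone of Malat1 (chr19:5795690-5802671, minus strand; promoter printed above) held 0 SPT5 sites, which allows up to 3.66 per 100000 at 3 counts. The NELFA, NELFB, NELFCD and NELFE libraries had 26.6, 32.3, 26.7 and 21.3 per 100000 there. A count of 3 in SPT5 would be 7.31-fold below the NELF mean. The rate ratio of pooled counts was 0, with an upper 95% exact conditional limit of 0.175. Downstream in Malat1, SPT5 had 52.4 per 100000, against 3.32, 9.69, 7.27 and 10.7 in NELFA, NELFB, NELFCD and NELFE, and the groups did not overlap in either zone. By counts, 43 SPT5 and 9 pooled NELF sites lay downstream, a rate ratio of 7.05 (95% exact conditional interval 3.39 to 16.5, counting error only). Neat1 had 4.88 per 100000 at the start in SPT5, against 29.9, 25.8, 19.4 and 16 in NELFA, NELFB, NELFCD and NELFE. Its downstream zone had 67.0 per 100000 in SPT5, against 13.3, 19.4, 4.85 and 42.7, and again SPT5 lay outside the NELF range in both zones.

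Over the whole gene with 5 kb on each side the opposite zones offset each other. Malat1 had 71.9 sites per 100000 in SPT5, against a mean of 48.3 ± 13.6 in NELF (SD, n = 4), and Neat1 had 113 against 84.8 ± 24.1. The totals of both genes lay closer together than their zones did.

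The alpha-tubulin genes, which encode a subunit of microtubules and stand side by side on chromosome 15, repeated the pattern. Tuba1b (chr15:98761856-98764996, minus strand) had 0 SPT5 sites in its start zone, against 19.9, 22.6, 21.8 and 16 per 100000 in NELFA, NELFB, NELFCD and NELFE, at least 5.49-fold lower by the same limit of 3 counts. It was the 1 start zone of 1115 tested that passed in limma, which is 0.0897% of those tested (fitted log2 fold change -4.39 ± 0.92 SE, adjusted p = 0.00232, Benjamini-Hochberg). The call was lost with all libraries thinned to the size of the smallest. With 0 SPT5 sites the zone met the filter through its NELF values alone, so the call leans on the values that selected it. Its downstream zone had 20.7 per 100000 in SPT5, against 0, 12.9, 2.42 and 5.33 in NELFA, NELFB, NELFCD and NELFE. Tuba1a had 7.31 per 100000 in SPT5 at the start, against 23.2, 19.4, 12.1 and 26.7, and 35.3 downstream, against 0, 6.46, 0 and 21.3. Tuba1c had 12.2 in SPT5 at the start, against 16.6, 22.6, 24.2 and 21.3, and 23.2 downstream, against 0, 3.23, 2.42 and 0. The 3 genes are near-identical in their coding parts, and how reads that fit several copies were placed is not given in the sources used here.

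No start zone was higher in SPT5 by limma (0 of 1115, 0%), with 11 higher and 21 lower at an unadjusted p under 0.05. For downstream zones limma called 0 of 3313 higher (0%) and 7 lower (0.211%), all 7 of them histone genes, with 85 higher and 71 lower at an unadjusted p under 0.05. The smallest adjusted p of a higher downstream zone was 0.14. Thinning every library to 18753 sites turned the direction of the calls, with 124 start zones higher and 7 lower of 1395, and 213 downstream zones higher and 51 lower of 3694.

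Among 1835 genes, those with at least 10 sites per 100000 in the 6 other libraries that are not small RNA genes, 22 (1.2%) had SPT5 below all 4 NELF libraries at the start and above all 4 downstream, and 31 (1.69%) had the opposite order. The first count is thus no larger than the second. Of the 31, Gm20417 lies inside Malat1 on the other strand, so the zones of these genes share sites in reversed order. The numbers of sites at the start follow in part from the rule and only describe these genes. Being below all 4 needs a site in every NELF library, while being above all 4 can be met with no NELF site. The 22, among them Malat1, Neat1, the 3 tubulin genes, Lgals1, Ptms, Ftl1, Ddit3, Junb, Cyr61, Ier3 and Polr2a, had 0 to 10 SPT5 and 6 to 33 pooled NELF sites at the start, while the 31 had 1 to 13 SPT5 and 0 to 3 pooled NELF sites there. Polr2a, which encodes the largest subunit of RNA polymerase II, had 7.31 per 100000 in SPT5 at the start, against 19.9, 19.4, 14.5 and 21.3 in NELFA, NELFB, NELFCD and NELFE, and 24.4 downstream, against 6.64, 6.46, 2.42 and 10.7. At the start alone, SPT5 was above all 4 NELF libraries in 417 of the 1835 genes (22.7%) and below all 4 in 56 (3.05%). Downstream alone it was above all 4 in 382 (20.8%) and below all 4 in 277 (15.1%).

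Other genes, chosen for display after their values were seen, had the same shape. Lgals1, which encodes the lectin galectin-1, had 1.22 per 100000 in SPT5 at the start, against 19.9, 35.5, 26.7 and 16 in NELFA, NELFB, NELFCD and NELFE. Downstream it had 32.9 in SPT5, against 6.64, 9.69, 7.27 and 5.33, with no overlap in either zone. Ptbp1, which encodes a splicing regulator, had 1.22 in SPT5 at the start, against 33.2, 9.69, 17 and 0, and 34.1 downstream, against 3.32, 6.46, 0 and 5.33. For Ptbp1 the start values overlapped, since NELFE had no site there.

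At Vim, Actb and Mat2a the excess lay downstream, while SPT5 fell inside the NELF range at the start. At the start of Vim, as at that of Ptbp1, SPT5 was above NELFE alone. Vim, the gene of the intermediate filament protein vimentin, had 43.9 per 100000 downstream in SPT5, against 0, 6.46, 4.85 and 0 in NELFA, NELFB, NELFCD and NELFE, and 7.31 at the start, against 23.2, 16.1, 14.5 and 5.33. Actb, the gene of cytoplasmic beta-actin, had 54.9 downstream in SPT5, against 3.32, 6.46, 4.85 and 10.7, and 11 at the start, against 16.6, 19.4, 7.27 and 26.7. Mat2a, which encodes the enzyme that makes S-adenosylmethionine, had 41.4 downstream in SPT5, against 3.32, 3.23, 2.42 and 0, and 11 at the start, against 13.3, 6.46, 21.8 and 0. The rate ratio of pooled counts downstream was 13.3 for Vim (4.76 to 51.4) and 16.7 for Mat2a (5.26 to 85.1). These intervals rest on 4 pooled NELF sites for Vim and 3 for Mat2a.

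**Figure D4:**
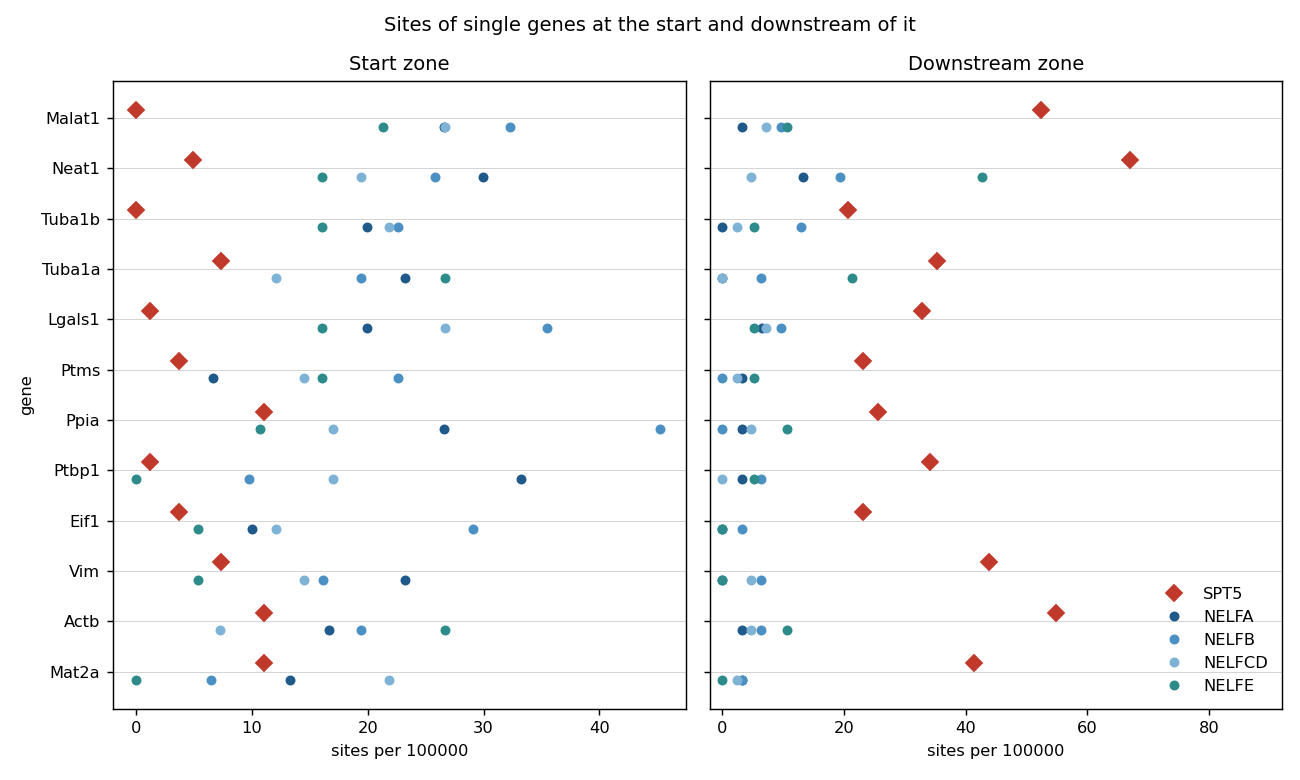
Sites per 100000 in the start zone (left) and the downstream zone (right) of 12 genes (rows) for SPT5 (diamonds) and each NELF library (circles); the genes were chosen after their values were seen. SPT5 is at 0 at the starts of Malat1 and Tuba1b, where NELF has 16 to 32.3, and to the right of all 4 NELF libraries downstream in every gene drawn.

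Stretches of at most 20000 bases with no site of one side were listed as examples, with the same limit for 82038 SPT5 and 121087 pooled NELF sites. A stretch without SPT5 sites therefore arises more easily, and the numbers of stretches of both kinds are not compared. There were 95 stretches with no SPT5 site and at least 15 pooled NELF sites, of which 43 held an annotated gene start and 29 lay within 5 kb of a histone gene. The 23 stretches with no NELF site and at least 15 SPT5 sites overlapped a gene in 22 cases, held a gene start in 3 and lay near a histone gene in 0. No share over comparable stretches was measured beside these counts, so they describe the examples alone. A 3900-base stretch over the start of Malat1 (chr19:5800117-5804016) had 44 NELF sites and none of SPT5, and a 13495-base stretch over Tuba1b had 38. On the other side, 6060 bases in Mat2a (chr6:72381185-72387244) had 23 SPT5 sites and none of NELF. A stretch of 13378 bases in Ncl, the gene of the nucleolar protein nucleolin with snoRNA genes in its introns, had 19 SPT5 sites and none of NELF. Hspa5, the gene of the chaperone BiP in the endoplasmic reticulum, had 19 SPT5 sites in its downstream zone, against 0 in each NELF library. Its SPT5 value was 9.35-fold above 3 counts over the pooled NELF libraries. The rate ratio of pooled counts had a lower 95% exact conditional limit of 6.89.

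Ribosomal protein genes, a set of short and strongly transcribed genes, were denser in SPT5 sites. The 83 genes with 5 kb on each side had 23.08-fold density in SPT5 (95% exact Poisson interval 21.56 to 24.68), against 7.381-, 12.13-, 12.01- and 7.703-fold in NELFA, NELFB, NELFCD and NELFE, or 2.35 times the NELF mean of 9.806 ± 2.62 (SD, n = 4). Start zones had 61.2-fold in SPT5, against 20.6-, 41.1-, 47.4- and 27.1-fold, and downstream zones 22.6-fold, against 5.51-, 8.41-, 6.67- and 5.63-fold. SPT5 lay above all 4 NELF libraries in both zones, with a wider gap downstream. Read on both instruments, the same list had 8.15-fold on HiSeq and 8.69-fold on GA for NABP1, 8.81- and 6.23-fold for NABP2, and 4.63- and 4.35-fold for INTS9.

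Of the 83, 28 passed the filter for the gene test and 0 passed the test in either direction, beside 0 higher (0%) and 17 lower (0.629%) of 2703 genes tested. Rpl13a, which carries snoRNA genes in its introns, had 46.3 per 100000 in SPT5, against 3.32, 29.1, 12.1 and 5.33 in NELFA, NELFB, NELFCD and NELFE (limma adjusted p = 0.485). Rps2, whose window also covers the snoRNA host Snhg9, had 51.2 in SPT5, against 26.6, 16.1, 17 and 10.7. At Rpl3 the total was 30.5 in SPT5, against 21.9 ± 9.45 in NELF (SD, n = 4). Its start had 7.31 in SPT5, against 16.6, 6.46, 26.7 and 26.7, and its downstream zone had 23.2 in SPT5, against 3.23 to 4.85 in 3 NELF libraries and 0 in NELFE. Rpl12 had 11 at the start in SPT5, inside the NELF range of 6.64 to 24.2, and 25.6 downstream, against 6.64, 6.46, 7.27 and 0.

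The 9 snoRNA host lncRNA genes, short noncoding genes whose introns release snoRNAs, had the highest ratio of SPT5 to the NELF mean among the gene lists. Their density was 57.01-fold in SPT5, against 19.5-, 28.45-, 24.4- and 12.3-fold in NELFA, NELFB, NELFCD and NELFE, 2.69 times the NELF mean. Start zones had 91.1-fold in SPT5, against 77.9-, 128-, 110- and 39.1-fold, well inside the NELF range. Downstream zones had 64.5-fold in SPT5, against 7.32-, 14.2-, 8.90- and 9.80-fold, and the groups did not overlap. Of the 9 genes 8 passed the filter and 0 passed the gene test.

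Single snoRNA hosts differed in how the sites were laid out. Snhg3 had 0 SPT5 sites at the start, against 13.3, 6.46, 12.1 and 5.33 per 100000 in NELFA, NELFB, NELFCD and NELFE, and 36.6 downstream, against 3.32, 6.46, 4.85 and 5.33. The annotation of Rcc1, which encodes a nuclear transport regulator, covers Snhg3, so these sites are also counted in Rcc1. Snhg1 (chr19:8797986-8800932, plus strand; promoter printed above) had 20.7 at the start in SPT5, against 13.3, 9.69, 12.1 and 5.33, and 20.7 downstream, against 0, 3.23, 4.85 and 0. Gas5 had 2.44 at the start in SPT5, against 3.32, 3.23, 0 and 0, and 29.3 downstream, against 3.32, 9.69, 2.42 and 5.33. SPT5 was above every NELF library downstream in each of the 3, and below every one at the start in Snhg3 alone.

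The broader set of 305 genes with an annotated snoRNA inside had 2.473-fold density in SPT5, against a NELF mean of 1.883 ± 0.0365-fold (SD, n = 4), a ratio of 1.31. Many of these genes are long. By the range rule, which takes genes with at least 10 sites per 100000 in the 6 other libraries and asks that SPT5 lie outside all 4 NELF values and at least 2-fold from their mean, 14 of 64 such hosts were above and 2 below. Over all 1883 genes under that rule 212 (11.3%) were above and 186 (9.88%) below, and the median ratio of SPT5 to the NELF mean was 1.21 over the 64 hosts and 1.01 over all 1883.

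Other groups of short, strongly transcribed genes lay above NELF in the same way. The 16 genes of SR and hnRNP splicing factors had 29.36-fold density in SPT5, against 11.6 ± 1.04-fold in NELF (SD, n = 4), and downstream zones had 21.3-fold, against 4.76-, 5.29-, 3.47- and 9.28-fold in NELFA, NELFB, NELFCD and NELFE. Hnrnpa1, an hnRNP gene, had 43.9 per 100000 in SPT5, against 3.32, 9.69, 29.1 and 5.33 (limma adjusted p = 0.556), and Srsf2, an SR protein gene, had 58.5, against 23.2, 29.1, 38.8 and 26.7. The 18 translation factor genes had 18.05-fold in SPT5, against 9.778 ± 1.59-fold, and the 19 genes of nucleolar and ribosome assembly proteins 12.79-fold, against 6.803 ± 0.814-fold. Nop56, a snoRNP protein gene that itself hosts snoRNAs, had 46.3 per 100000 in SPT5, against 6.64, 16.1, 9.69 and 16. None of these genes passed the gene test.

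In the 20 actin cytoskeleton genes and the 22 immediate early genes the zones again parted. Actin genes had 104-fold density at starts in SPT5, against 123-, 136-, 129- and 91.4-fold in NELFA, NELFB, NELFCD and NELFE, and 18.5-fold downstream, against 6.68-, 5.36-, 4.88- and 10.5-fold. Immediate early genes, which growth signals switch on within minutes and whose polymerase is known to pause, had 100-fold at starts in SPT5, against 133-, 122-, 98.8- and 125-fold, and 42.3-fold downstream, against 11.8-, 19.5-, 14.3- and 14.0-fold. SPT5 fell inside the NELF range at the starts of both groups and above it downstream. Of the 31 genes of pausing and elongation proteins, whose density was 5.364-fold in SPT5 and 4.066 ± 0.576-fold in NELF, 6 were tested and 0 passed.

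**Figure D5:**
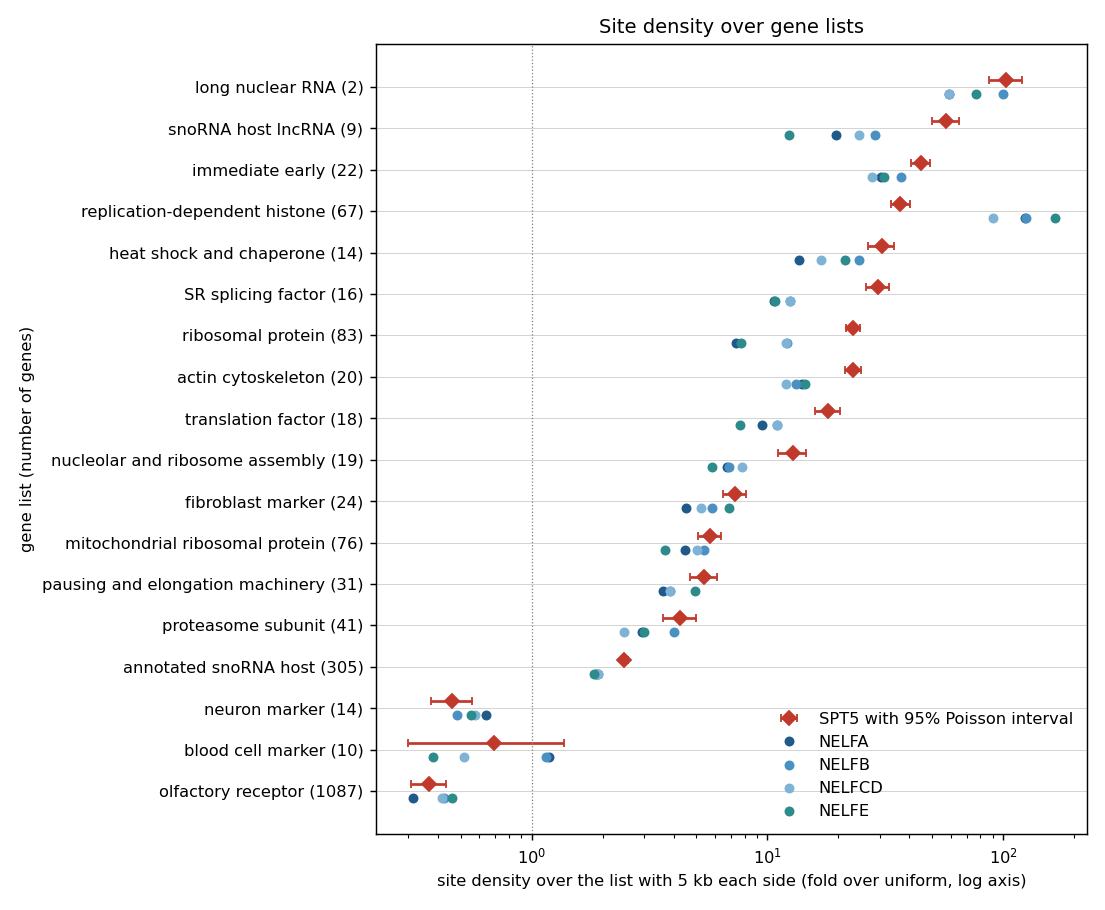
Site density (fold over uniform, log axis) over 18 gene lists (rows, with the number of genes) with 5 kb on each side, for SPT5 with its 95% Poisson interval (diamonds) and each NELF library (circles). SPT5 is to the left of all 4 NELF libraries for histone genes, at 36.65 against 90 to 165.8, and to the right of all 4 for snoRNA host lncRNA and ribosomal protein genes.

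The replication-dependent histone genes went the other way and gave all but 1 of the calls of the gene test. They make histones in S phase from short genes in clusters whose RNAs end in a stem-loop without a poly(A) tail. The 67 genes had 36.65-fold density in SPT5, against 123.1-, 124.8-, 90- and 165.8-fold in NELFA, NELFB, NELFCD and NELFE, 0.291 times the NELF mean. Start zones had 91.6-fold in SPT5, against 311-, 182-, 175- and 377-fold, and downstream zones 31.6-fold, against 107-, 120-, 83.6- and 139-fold. SPT5 was below all 4 NELF libraries in both zones, unlike at the heavily used starts above. Read on both instruments the list had 19.1-fold on HiSeq and 16.1-fold on GA for NABP1, 24.3- and 21.0-fold for NABP2, and 8.55- and 6.38-fold for INTS9, so the HiSeq part was the higher one in these 3.

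Of 58 histone genes tested in limma, 16 passed as lower in SPT5 and 0 as higher, and the 17th gene called, Gm17658, lies within the cluster on chromosome 13. Their windows overlap and merge into 8 loci, 5 on chromosome 13, 2 on chromosome 3 and 1 on chromosome 11, so the calls are not 17 separate places. Hist1h4k (chr13:21842063-21842374, minus strand; promoter printed above) had 9.75 per 100000 in SPT5, against 86.4, 120, 50.9 and 112 in NELFA, NELFB, NELFCD and NELFE, a log2 fold change of -3.04 ± 0.56 (SE; limma adjusted p = 0.000151). Its locus of 14310 bases, shared with Hist1h2ak and Hist1h2bn, held 9 SPT5 sites, against 27, 38, 23 and 21. Hist1h1d, a linker histone gene, had 20.7 in SPT5, against 123, 96.9, 70.3 and 171 (log2 fold change -2.35, adjusted p = 0.00532). Hist1h4d had 21.9, against 110, 107, 94.5 and 107 (adjusted p = 0.0102), and outside the main cluster Hist3h2ba on chromosome 11 had 11, against 69.7, 42.0, 31.5 and 96.0 (adjusted p = 0.0382). The filter averaged the SPT5 value with the NELF mean, so histone genes could enter on high NELF values, and the calls lean on values that selected them. Chosen by the 6 other libraries, 23 of the 67 genes entered the range rule, with 23 below and 0 above. Over all 1883 genes under that rule 186 (9.88%) were below. Histone genes are near-identical copies, so reads may have been split among them or dropped.

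Without NELFA the gene test called 3 genes in place of 17, and a filter that used only the 6 other libraries called 3. Fits with all 11 libraries or without the trend and robust settings called 0, with 116 and 88 genes at an unadjusted p under 0.05. Without any filter most calls turned the other way, with 2419 genes higher and 62 lower of 23078. Over the whole gene with flanks no gene was higher in SPT5 (0 of 2703), with 64 higher and 81 lower at an unadjusted p under 0.05 and a median log2 fold change of 0.57 over the genes tested. The filter used the SPT5 value and the NELF mean, and with the filter on the 6 other libraries the median was 0.21. The closest to a higher call was Midn, whose protein midnolin takes part in degrading immediate early proteins, with 93.9 per 100000 in SPT5, against 19.9, 45.2, 41.2 and 5.33 in NELFA, NELFB, NELFCD and NELFE (adjusted p = 0.239). The gene with the most sites in both was Gm20388, an annotated locus on chromosome 8 (chr8:122434741-126869622) that spans many genes, with 480 in SPT5 and 478 ± 44.6 in NELF. Plec, the gene of the cytoskeletal linker plectin, had 91.4, against 59.8, 42.0, 55.7 and 53.3, with SPT5 above all 4.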

How the data were processed

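Integration sites from 5 HIT-seq libraries were analysed, 1 each for SPT5, NELFA, NELFB, NELFCD and NELFE. The deposited files hold no counts or signal but other values, mm9 positions with strands, 1 entry per junction; the build is named in the submitters' processing notes, and the aligner and the read filters used by the authors were not stated in those sources. Entries were collapsed to distinct chromosome, position and strand. Each read name is followed by 2 numbers that no header explains; the first was never below 2. Depth was 82038 sites for SPT5 and 18753 to 41265 for NELF. Gene models and promoter letters came from a GENCODE annotation and genome of mm9.

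Sites were counted per gene with 5 kb on each side, in start zones and in downstream zones, and scaled per 100000 sites of the library. Zones and genes were compared with limma 3.58.1 (R 4.3.3; trend and robust settings) on log2 of that value plus a pseudocount of 1, with Benjamini-Hochberg adjustment at 0.05. Genes needed an average of the SPT5 value and the NELF mean of at least 10, and zones of at least 5. Folds are on that log scale and understate low genes. The NELF subunits are not repeats of one protein. The p-values rest on a spread between the 4 NELF libraries that limma pools over genes of similar level. They do not measure the spread of the 4 values of a single gene. The test was tested on simulated data with known changes. At the depth of the files it recovered 15.2% of 4-fold increases for genes, 21.9% for start zones and 15.2% for downstream zones. Genes without a call are therefore not shown to be equal in SPT5 and NELF. Gene names, lists and members were chosen with earlier results of these data known. Named genes are the 12 called genes with the largest folds outside the NELF range, the 5 with the most sites on either side, and, per list, its 4 members densest in sites; Lgals1, Ptbp1, Mat2a, Hspa5, Rcc1, Gas5, Tuba1a, Tuba1b, Tuba1c and others outside that rule were chosen after their values were seen. Alternatives covered pseudocount, filters, flanks, scaling, thinning, merging of nearby sites and leaving out each NELF library. Intervals cover counting error only. Python 3.11.15 with scipy 1.17.1 and pysam 0.24.0 was used for counting.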

Additional observations from a re-analysis of the deposited data

Results flagged for a closer look

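Among 74 sets of 4 NELF values, 2 held a library whose gap to the nearest of the others, over the whole range, was above Dixon's 95% critical value, and chance flags about 1 in 20 such sets. The 8 epithelial marker genes had 1.747-fold density in NELFE, on 3 sites, with a gap of 0.915 of the range; the other NELF libraries had 0.7053 to 0.7938. Genes of 2 to 20 kb with 0.346 to 0.708 start-zone sites per 100000 in the 6 other libraries had 2.56-fold body density in NELFCD, with a gap of 0.836 of the range, where SPT5 had 5.0 and the other NELF libraries 3.02 to 3.11. No explanation of either value was tested.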

How the results depend on the processing

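No paired analysis was possible because the libraries carry no replicate numbers and SPT5 has 1 library. Of 96 alternative values over 11 results, 74 stayed on the same side within a set limit, which for shares and the elongation ratio was the NELF SD. That limit was wide. Without NELFE the SPT5 excess within 1 kb of starts fell from 2.98 to 0.907 points, and the elongation difference moved from -0.443 to -0.182. In 3 values most calls turned to the other direction: genes without a filter, and start and downstream zones after thinning. For the gene test, with 17 calls, the count was 34 with libraries thinned to the smallest, 27 with a filter of 20, 3 with a filter on the 6 other libraries, 1 without flanks, 67 with the median set to 0, 0 with all 11 libraries in the fit (116 at an unadjusted p under 0.05) and 0 without trend and robust settings (88). Without a filter it was 2481, 2419 of them higher in SPT5, over 23078 genes. Leaving out 1 NELF library gave 3 to 20 calls, with 3 without NELFA. For start zones, with 1 call, it was 2 with a pseudocount of 0.5 or a filter of 10, 131 with thinning (124 higher, 7 lower) and 1 to 8 leaving out a library, 8 without NELFE. For downstream zones, with 7, it was 264 with thinning (213 higher, 51 lower), 16 with a filter of 10 and 4 to 13 leaving out a library, 4 without NELFA and 13 without NELFCD. The SPT5 excess past ends was 2.04 points without sites near histone genes, and that 1 to 5 kb downstream was 6.66 with a first number of at least 3. The log2 ratio for annotated snoRNA hosts, 0.39, was 0.349 with 1 kb on each side, 0.434 with a first number of at least 3 and 0.462 without the member with the most sites. The causes were not tested. Of the 12 histone genes named by the test, 9 lost their call without NELFA. NELFE, with 18753 sites, limits single genes most: 1 site there is worth 5.33 per 100000.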

Other observations

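Other loci with stretches rich in NELF sites and empty of SPT5 sites were chosen after their values were seen. Id3, which encodes an inhibitor of helix-loop-helix factors, had 13.4 per 100000 at the start in SPT5, against 29.9, 38.8, 26.7 and 10.7 in NELFA, NELFB, NELFCD and NELFE, and 11 downstream, against 13.3, 45.2, 24.2 and 42.7. Brd2, the gene of a bromodomain protein that binds acetylated histones, held a stretch of 4643 bases in its 5′ part (chr17:34254544-34259186) with 67 NELF sites and 0 SPT5 sites. Over its whole downstream zone Brd2 had 46.3 in SPT5, inside the NELF range of 37.3 to 67.8. Tob2, an antiproliferative gene, had a shorter empty stretch of 1744 bases over its start with 40 NELF sites and 0 SPT5 sites. The annotation holds a longer and a shorter Tob2 model. The downstream zone of the longer had 29.3 in SPT5, against 6.64, 3.23, 0 and 5.33. That of the shorter had 26.8, against 19.9, 9.69, 7.27 and 0. A locus of the spliceosomal U4 RNA on chromosome 5, which is transcribed by RNA polymerase II without a poly(A) tail, had 30 NELF sites and 0 SPT5 sites over 2259 bases.

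Long genes leaned toward NELF in sum and in their median ratio. Among single genes past the 2-fold rule they differed from all genes mainly by fewer cases above NELF. Of 928 genes of at least 100 kb with at least 10 sites per 100000 in the 6 other libraries, 41 had SPT5 above all 4 NELF values and at least 2-fold over their mean, and 102 had it below by the same rule, beside 212 (11.3%) above and 186 (9.88%) below of all 1883 genes. The share of long genes below was near that of all 1883, while the share above was lower. The median ratio of SPT5 to the NELF mean was 0.868 over the 928 long genes and 1.01 over all 1883. Fgfr2, the gene of a fibroblast growth factor receptor, had 90.2 per 100000 in SPT5, against 126 ± 5.95 in NELF (SD, n = 4; limma adjusted p = 0.843), and Lpp, the gene of a focal adhesion protein, had 30.5, against 52.4 ± 17.2 (adjusted p = 0.843). Neither passed the test.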
